A study of Homo sapiens with 9 samples.

Results

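The 3 libraries of untreated HaCaT cells were described on their own, by the level of every gene in them. They were chosen by their titles, which name them as controls, and they were 3 of the 9 libraries in the series. HaCaT is a spontaneously immortalised line of human keratinocytes, the main cell of the epidermis. The cells were wild type, were grown in DMEM with 10% fetal bovine serum, were used after they had reached confluence and were then kept in serum-free medium with no agent added. The time that the untreated cells spent in that medium is not given in the labels. The other 6 libraries came from HaCaT cells in the same medium with EGF at 10 nM (3 libraries) or with bleogen pB1, a cactus peptide that activates the EGF receptor, at 1 µM (3 libraries), each for 24 h, and none of them was used here. No source says whether the 3 untreated libraries came from separate cultures, so the errors given are the SD over 3 libraries and may be technical. Since 1 cell line was sequenced, the values describe that line.

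In the epidermis, basal keratinocytes sit on the basement membrane through hemidesmosomes, divide under the control of the transcription factor p63 and of the EGF receptor, and fill their cytoplasm with a filament made of keratins 5 and 14. When they leave the basal layer they stop dividing, exchange these keratins for keratins 1 and 10, and assemble a cornified envelope from involucrin, loricrin, filaggrin and the small proline-rich and late envelope proteins, which transglutaminases cross-link. The EGF receptor is activated by ligands that metalloproteinases cut from the cell surface, passes the signal on through RAS and the MAP kinases and through PI3K, and is held back by feedback inhibitors.

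The libraries held 20543373, 20288417 and 20614767 expected counts, which are estimates of the number of fragments per gene. Levels are given as FPKM, the fragments per kilobase of gene, scaled to the total of the library, so that genes of different length can be compared. All values are means ± SD over the 3 libraries (n = 3), or the values of replicates 1, 2 and 3 in that order. A gene was taken as on where its FPKM was at least 1 in each of the 3 libraries, as off where it was under 1 in each, and as mixed otherwise. The tables list no FPKM under 0.01, and a gene with no entry in a library was counted as 0 there. Whether a gene with no entry in any library had no reads or was left out of the counting is not stated. Of 15250 genes listed in at least 1 library, 10693 (70.1%) were on, 4260 (27.9%) were off and 297 (1.95%) were mixed, with mean FPKM between 0.347 and 4.19 for the mixed genes. The median FPKM was 6.65 over the listed genes and 13.5 over the genes that were on. Of the 20056 protein-coding genes of RefSeq, 10637 were on, which is 53.0%, and 4978 had no entry. This share of 53.0% is the level against which the counts of the gene lists can be read. A list with a share near it is not set apart by its count. Among the genes on, 4324 lay from 1 to 10 FPKM, 5653 from 10 to 100, 653 from 100 to 1000 and 63 above that. In the 3 libraries, 10861, 10841 and 10814 genes reached 1 FPKM.

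**Figure D1:**
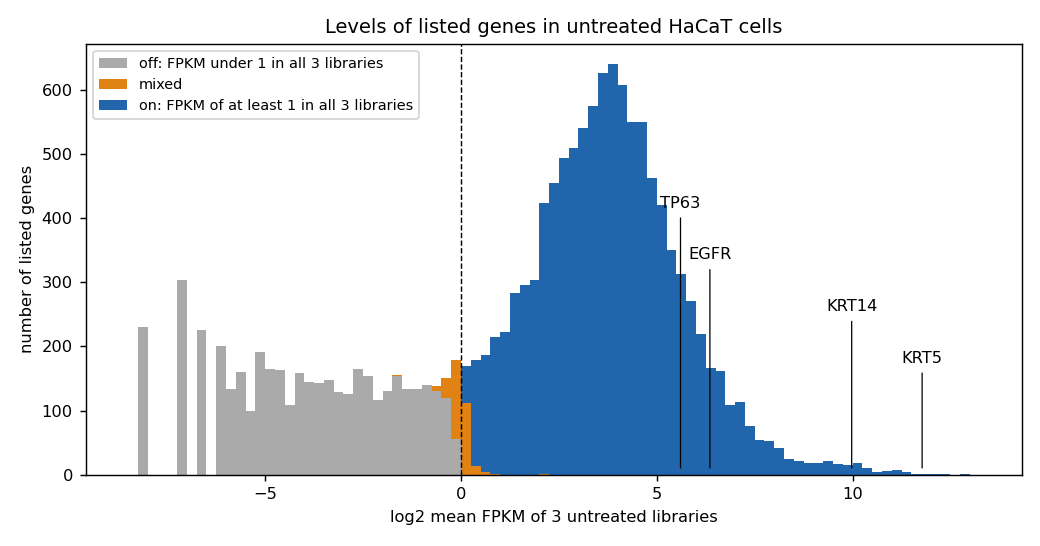
Number of listed genes (y axis) by log2 of the mean FPKM of the 3 untreated libraries (x axis), coloured by whether the gene was on, off or mixed, with the dashed line at 1 FPKM. The 10693 genes that were on form a peak near the median of 13.5 FPKM, and KRT5, KRT14, EGFR and TP63 lie to the right of that peak.

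A small number of genes held much of the signal. The 10 genes with the highest mean FPKM held 8.81 ± 0.130% of the summed FPKM, the first 20 held 13.7 ± 0.311%, the first 100 held 32.2 ± 1.01% and the first 1000 held 64.5 ± 0.923%. The first 373 genes held 50% of it. Ribosomal protein genes made up 10 of the first 20 and 56 of the first 100, led by RPL41 at 5079.7 ± 543 FPKM and RPS2 at 4621 ± 248. All 33 listed proteins of the small ribosomal subunit were on, as were 49 of 51 of the large subunit, where RPL3L had a mean of 0.043 FPKM and RPL10L had no entry. The large-subunit genes together held 11.8 ± 0.509% of the summed FPKM and the small-subunit genes 7.34 ± 0.442%. Ribosomal protein genes have many processed copies in the genome, and how the counting assigned reads among such copies is not stated. Short genes also gain from the effective length that FPKM divides by, here about 67.4 to 72.0 bases less than the gene length, which weighs most on genes such as RPL41.

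The other genes among the first 20 had varied roles. GAPDH, a glycolytic enzyme, was at 4560.5, 4682 and 4558 FPKM. FTH1, the heavy chain of the iron store ferritin, was at 3931, 3864 and 3692 FPKM. EEF1A1, which brings aminoacyl-tRNA to the ribosome, was at 3148, 3317 and 3209 FPKM. These levels were close in the 3 libraries, with coefficients of variation (CV) of 1.54% for GAPDH, 3.23% for FTH1 and 2.65% for EEF1A1. SCD, the desaturase that makes monounsaturated fatty acids, was at 2584 ± 112 FPKM, above ACTB, the cytoplasmic actin, at 2521 ± 132 FPKM, but the 2 ranges over the libraries overlapped. S100A11, a calcium-binding protein of keratinocytes, was at 2688, 2696 and 2259.7 FPKM, and IFITM3, an interferon-induced membrane protein, was at 2308, 2269 and 1766 FPKM. Both were lowest in replicate 3. KRT5 was the sixth gene in the order.

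The first gene in the order was MTRNR2L2, at 7685, 8175 and 8159 FPKM, and another of its family, MTRNR2L8, was the tenth at 2569.9, 2924 and 2784 FPKM. These are nuclear sequences that are nearly identical to the mitochondrial 16S ribosomal RNA. None of the 37 mitochondrial genes of RefSeq was listed, so reads from that RNA and from the nuclear copies cannot be told apart here, and the level of these genes is uncertain. The 9 listed MTRNR2L genes held between 1.12% and 1.23% of the counts of a library and between 2.38% and 2.59% of its FPKM. Since no mitochondrial gene was listed, the 13 subunits of the respiratory chain that the mitochondrial genome encodes were not measured.

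The 4 markers that define the basal keratinocyte were on in all 3 libraries, as the label of the cells implies. KRT5 (type II keratin, chr12:52514575-52520530, minus strand, GRCh38) was at 3636, 3612 and 3269.8 FPKM. KRT14, its type I partner (chr17:41582279-41586895, minus strand), was at 1020.1, 1082 and 922 FPKM. EGFR, the receptor of EGF (chr7:55019017-55211628, plus strand), was at 84.5, 78.2 and 83 FPKM. TP63, which encodes p63 (chr3:189631389-189897276, plus strand), was at 48.9, 46.9 and 50.3 FPKM. The ranges of the 4 genes over the libraries did not overlap, so that their order was the same in each library. KRT5 exceeded KRT14 by 3.48 ± 0.126 fold and TP63 by 72.1 ± 6.33 fold in FPKM. Of 10 further genes of basal keratinocytes, 9 were on. KRT15, a keratin of basal and hair follicle cells, was at 249.9, 246 and 254 FPKM. The basal integrin chains ITGB4, ITGB1, ITGA6 and ITGA3 had means of 191, 147, 102 and 100.1 FPKM, and COL17A1, the transmembrane collagen of the hemidesmosome, had 154 FPKM. P-cadherin, encoded by CDH3, had a mean of 131 FPKM, and the Notch ligand DLL1 had 6.62. The exception was LRIG1, a stem cell gene that restrains the EGF receptor, at 0.21, 0.13 and 0.13 FPKM, which is under 1 in each library.

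Keratins are coded in pairs of a type I and a type II chain, and each layer and each kind of epithelium has its own pairs. Of the 54 keratin genes, 15 were on (27.8%, beside 53.0% of protein-coding genes), 1 was mixed and 38 were off, of which 20 had no entry in any library. Among the type I chains KRT19, a keratin of simple epithelia and of less mature epidermis, was first at 1525, 1605 and 1537 FPKM. KRT17, which marks wounded and appendage epithelium, was at 1397, 1531 and 1261 FPKM. The ranges of these 2 genes overlapped, but KRT19 was above KRT17 in each of the 3 libraries. KRT13, a keratin of the inner stratified epithelia such as the oesophagus, was at 1020.2, 1045 and 967 FPKM, and its range overlapped that of KRT14. Below them were KRT18 at 299.7 ± 5.48, KRT15 at 250.2 ± 3.96, KRT10 at 10.9 ± 1.12 and KRT16 at 4.01 ± 0.544 FPKM, with no overlap between neighbours. KRT9, the keratin of palms and soles, was mixed at 0.94, 1.06 and 0.85 FPKM.

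Among the type II chains KRT5 alone held 70.0 ± 1.5% of the FPKM of the epithelial chains. KRT8, the partner of KRT18 in simple epithelia, was at 677, 673 and 718 FPKM. KRT7, another keratin of simple and glandular epithelia, was at 541, 571 and 549.5 FPKM. KRT6A, which is induced in wounded epidermis, was at 202, 205 and 194 FPKM, while its close copies KRT6B and KRT6C had means of 0.013 and 0.01 FPKM. Reads that match more than 1 of these copies could be split by the counting, so the levels within this family are uncertain. KRT80, KRT4 and KRT1 followed at 33 ± 0.556, 21.4 ± 1.44 and 3.0 ± 0.606 FPKM. No neighbours among these type II keratins overlapped in range. KRT2, the keratin of the upper epidermis, had no entry. None of the 26 keratins of the hair and its root sheath was on. Their summed FPKM lay between 0.15 and 0.32 for type I and between 0.25 and 0.27 for type II.

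**Figure D2:**
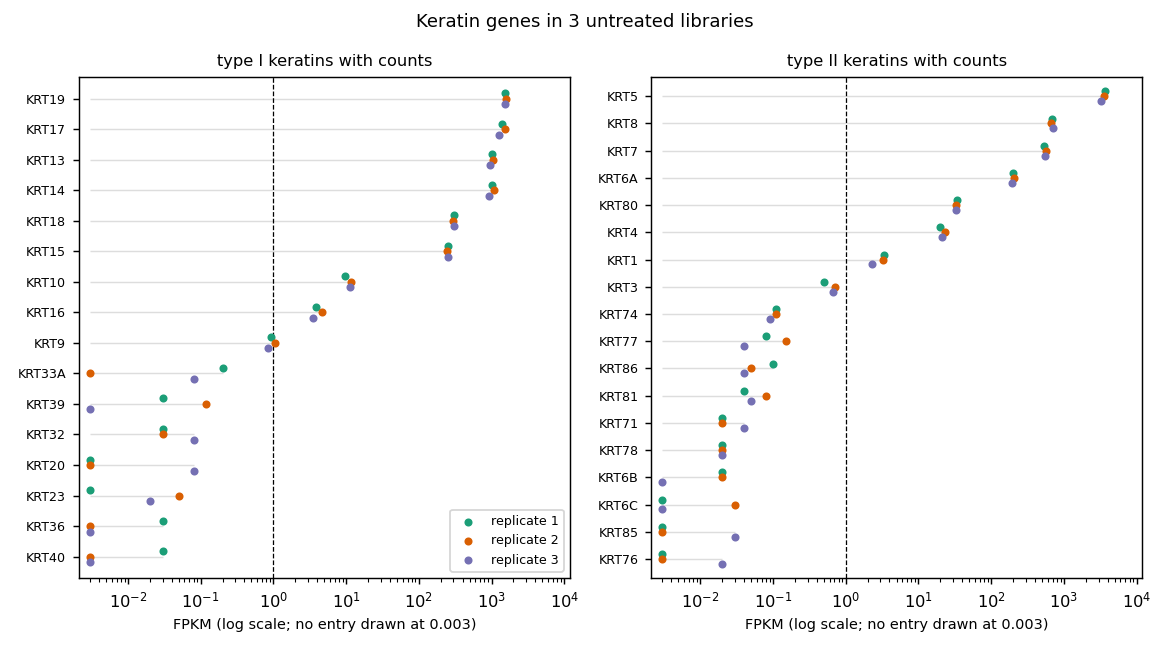
FPKM of each type I (left) and type II (right) keratin gene that had an entry, on a log axis, with 1 point per untreated library and genes with no entry in a library drawn at the left edge. The points of a gene lie close together above 1 FPKM (dashed line), KRT5 stands apart at the top of the type II chains, and the hair keratins are all left of the line.

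Most early markers of differentiation and most precursors of the cornified envelope were off. Of 73 genes of differentiation 22 (30.1%, beside 53.0% of protein-coding genes) were on and 51 were off, 27 of these with no entry. KRT10, the first keratin of the suprabasal layers, was at 9.67, 11.8 and 11.3 FPKM, and its partner KRT1 was at 3.4, 3.29 and 2.3 FPKM. KRT14 exceeded KRT10 by 92.8 ± 12.2 fold, and KRT5 exceeded KRT1 by 1196 ± 196 fold. The other 6 genes of the early suprabasal list were off: the suprabasal desmosomal cadherins DSG1 and DSC1 had means of 0.0033 and 0.033 FPKM, the secreted proteins KRTDAP and SBSN 0.12 and 0.05, and CALML3 0.013, and the calcium-binding protein CALML5 had no entry. In RNA from a whole culture, a gene used by few cells and a gene used weakly by many cells cannot be told apart.

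Of 38 precursors of the cornified envelope, 6 were on and 32 were off, 23 of these with no entry. The plakin PPL, which is also found at desmosomes, was first at 47.9, 45.5 and 50.4 FPKM. EVPL, a related plakin, was at 16.8, 15.6 and 17 FPKM, and FLG, which gathers keratin filaments and is broken down to the skin's moisturising factor, was at 15.2, 13.3 and 17.6 FPKM. The ranges of EVPL and FLG overlapped. IVL, the scaffold of the envelope, was at 6.92, 7.25 and 6.25 FPKM. CNFN and SPRR1B were at 2.43 ± 0.602 and 1.64 ± 0.48 FPKM. LORICRIN, the main protein of the mature envelope, and 16 of the late envelope (LCE) genes had no entry, and LCE5A had a mean of 0.457 FPKM. Of the enzymes that cross-link the envelope, TGM1 was on at 4.23, 4.51 and 3.8 FPKM, TGM2 and TGM5 were off and TGM3 had no entry. Among the enzymes of barrier lipids, UGCG, which makes glucosylceramide, was at 14.8 ± 0.533 FPKM, while the lipoxygenases ALOX12B and ALOXE3 had means of 0.20 and 0.083 and CYP4F22 had no entry. Kallikreins were the highest of 13 genes of shedding, of which 8 were on. KLK5, which cuts the corneodesmosome, was at 245, 239 and 233 FPKM, KLK10 at 74.9 ± 2.41 and KLK8 at 24.1 ± 1.76 FPKM. CDSN, a protein of the corneodesmosome, was off with a mean of 0.183 FPKM, and CASP14 was off with 0.21.

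The promoters of the precursor genes were searched for the TATA box, a short motif that sets the start of transcription in a minority of genes. RefSeq promoters of GRCh38.p14, each from 250 bases before to 50 bases after a start, were found for 33 of the 38 precursor genes, with 1 promoter each. The motif TATAAA, searched on the strand of the gene with its first base 40 to 20 bases before the start, lay in 18 of the 33 (54.5%). It lay in 3.05% of all 22199 promoters of protein-coding genes, in 1.40% of the 12960 promoters of genes that were on, in 4.01% of the 4488 promoters of genes that were off and in 6.90% of the 4408 promoters of genes with no entry. Many of the 33 belong to families of near copies in 1 cluster on chromosome 1 and are not independent of each other. The median number of CpG dinucleotides was 2 in the 33 promoters, 26 in those of genes on and 12 in those of genes off. The 120 bases before the start are shown for 3 genes of differentiation that were on, chosen after the search because each carries the motif, which stands in capitals.
KRT10 (chr17:40822615-40822734, minus strand): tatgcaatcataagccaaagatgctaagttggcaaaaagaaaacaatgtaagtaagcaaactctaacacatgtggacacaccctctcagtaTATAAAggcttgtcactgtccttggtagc
FLG (chr1:152325240-152325359, minus strand): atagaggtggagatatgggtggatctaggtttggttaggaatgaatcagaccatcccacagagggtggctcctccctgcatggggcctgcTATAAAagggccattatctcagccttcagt
IVL (chr1:152908426-152908545, plus strand): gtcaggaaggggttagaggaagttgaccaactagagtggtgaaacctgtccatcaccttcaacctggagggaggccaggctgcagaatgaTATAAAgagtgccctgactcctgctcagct
A match is a description of letters and not of a bound factor.

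Of 27 transcription factors of keratinocyte fate, 19 were on (70.4%, beside 53.0% of protein-coding genes). Among the basal and lineage factors, TP63 was at 48.7 ± 1.72 FPKM, followed by KLF5 at 36.8 ± 1.78, EHF at 34.4 ± 2.88 and TFAP2A at 29.7 ± 2.13. SOX9, a factor of the hair follicle, was at 28.6 ± 3.32 FPKM, and GRHL2, which keeps epithelial junction genes active, at 25.4 ± 1.06. GRHL1 was off at 0.44, 0.74 and 0.96 FPKM, with its highest value just under the limit of 1. Among 14 factors of differentiation 7 were on and 7 were off, a share near that of protein-coding genes. CEBPB was at 23.8 ± 1.01, NOTCH1 at 20.3 ± 1.14, GATA3 at 14.2 ± 1.0 and KLF4 at 9.57 ± 0.0513 FPKM. ZNF750, PRDM1, HOPX and MAF, which act late in differentiation, had means of 0.37, 0.197, 0.047 and 0.023 FPKM and were off.

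Of 100 cell adhesion genes 60 were on (60%, beside 53.0% of protein-coding genes). All 10 genes of the hemidesmosome and of the epidermal laminin that it binds were on. The laminin chains LAMB3 and LAMA3 had means of 178 and 50.7 FPKM, and the plakins DST and PLEC, which tie keratins to the hemidesmosome, had 37.9 and 26.8. Of 13 desmosome genes, 10 were on and JUP, which encodes plakoglobin, led at 634, 629 and 598 FPKM. The plakophilin PKP1 was at 147 ± 2.87 and desmoplakin, DSP, at 109.8 ± 4.34 FPKM. DSG2 exceeded DSG3 by 2.99 ± 0.0747 fold and DSC3 exceeded DSC2 by 2.14 ± 0.0581 fold, while DSG1, DSG4 and DSC1, the 3 genes of the list that were off, belong to upper layers or hair. Of the classical cadherins, CDH3 was above CDH1 by 1.39 ± 0.0246 fold and CDH1 above CDH2 by 1.98 ± 0.0203 fold. At the tight junction 12 of 19 genes were on, led by CLDN1 at 346, 331 and 310.1 FPKM, with F11R at 102 ± 2.12, CLDN7 at 101 ± 3.31 and CLDN4 at 59.6 ± 1.98 FPKM, while CLDN2 and CLDN17 had no entry. At the gap junction GJB5 was at 34.8 ± 2.8 FPKM, GJA1 at 20.5 ± 0.376 and GJB2 at 2.23 ± 0.252. GJB6, a connexin of skin, had no entry. Among the integrins, 6 of 18 alpha chains and 5 of 8 beta chains were on. Among the chains known from leukocytes ITGA4 was on at 3.03, 2.71 and 3.19 FPKM, ITGAE was mixed at 0.86, 1.07 and 1.1 FPKM, and ITGB7, ITGAM, ITGB2, ITGAX and ITGAL were off with means of 0.453, 0.123, 0.017, 0.01 and 0.0033 FPKM.

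Of 64 genes of the extracellular matrix 39 were on (60.9%, beside 53.0% of protein-coding genes). THBS1, an adhesive glycoprotein, was at 274, 270.2 and 259 FPKM. SPARC and AGRN followed at 149.7 ± 7.79 and 146 ± 3.44 FPKM with overlapping ranges, and FN1, which encodes fibronectin, at 109 ± 3.01. Of 20 collagen genes 10 were on, a share near that of protein-coding genes. After COL17A1 came the basement membrane chains COL4A2 at 64.5 ± 2.15 and COL4A1 at 28.9 ± 0.389 FPKM and the anchoring fibril COL7A1 at 28.9 ± 0.96, the last 2 with overlapping ranges. The interstitial chains COL1A1, COL1A2 and COL3A1 had means of 0.507, 0.01 and 0.903 FPKM and were off. Among 15 metalloproteinases 9 were on: MMP14 was at 77.1 ± 2.94, MMP2 at 46.8 ± 3.31, MMP28 at 36.5 ± 0.636 and MMP13 at 33.1 ± 1.95 FPKM, MMP9 was off at 0.36, and MMP3 and MMP8 had no entry. Their inhibitor TIMP1 was at 140.1, 154 and 125 FPKM and made up 85.8 ± 0.755% of the FPKM of the 4 inhibitors. In the plasminogen system the activator PLAU was at 73.3 ± 1.69 FPKM, and its receptor PLAUR at 8.72 ± 0.245, while PLG, the substrate, had no entry.

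Markers of other cell types were mostly off. Simple epithelium is set apart here, because 6 of its 7 markers were on: KRT19, KRT8, KRT7 and KRT18 as given above, EPCAM at 142 ± 4.42 FPKM and MUC1 at 10.4 ± 1.12. Of the 62 markers of melanocytes, fibroblasts, endothelium, leukocytes, Merkel cells, nerve, muscle, liver and germ cells, 6 were on (9.68%, beside 53.0% of protein-coding genes), 1 was mixed and 55 were off, 23 of these with no entry. Their summed FPKM was between 16.9 and 20.1 in the 3 libraries. The 6 were ACTA2, the actin of smooth muscle, at 3.28, 3.21 and 2.87 FPKM, SYP, a synaptic vesicle protein, at 2.11, 2.42 and 3.16 FPKM, SYN1 at 2.12, 2.5 and 2.59 FPKM, ISL1 at 1.58, 2.19 and 1.84 FPKM, NEFL at 1.81, 1.44 and 1.49 FPKM and MITF at 1.33, 1.09 and 1.69 FPKM. Each was below 4 FPKM in each library. Other defining genes of those cell types had no entry in any library. These were TYR, SOX10 and DCT of melanocytes, PDGFRA and THY1 of fibroblasts, KDR of endothelium, and CD3E and CD207 of leukocytes and Langerhans cells. The same held for ATOH1 of Merkel cells, DES and MYOD1 of muscle, RBFOX3 of neurons, DAZL and DDX4 of germ cells and ALB of hepatocytes. PTPRC, the CD45 of leukocytes, and PECAM1 of endothelium had means of 0.053 and 0.02 FPKM. POU5F1 was mixed at 0.97, 1.25 and 1.68 FPKM, and it has processed copies in the genome that can take or give reads.

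All 9 epithelial genes of the list on epithelial and mesenchymal state were on, with EPCAM, RAB25, CDH1 and the splicing factor ESRP1 at 142, 97.3, 93.8 and 64.1 FPKM. Of 11 mesenchymal genes 6 were on. These were SPARC, FN1, SNAI2, CDH2, S100A4 and TWIST2, at means of 149.7, 109, 67.4, 47.4, 24.2 and 1.91 FPKM. VIM, which encodes vimentin (chr10:17228241-17237593, plus strand), was off at 0.05, 0.09 and 0.14 FPKM. ZEB1 had a mean of 0.277 FPKM and SNAI1 and ZEB2 had no entry. SNAI2 is also a gene of basal keratinocytes.

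Of 78 genes of the EGF receptor pathway 65 (83.3%) were on, beside 53.0% of protein-coding genes, 2 were mixed and 11 were off. These counts are of RNA, and signalling through the receptor was not measured. Of the 4 receptors, EGFR held 54.2 ± 0.576% of the summed FPKM. ERBB2, the partner that binds no ligand of its own, was at 54.8, 52.3 and 53.7 FPKM. ERBB3, a neuregulin receptor with little kinase activity, was at 16, 15.5 and 15.1 FPKM. ERBB4 was off at 0.09, 0.07 and 0.13 FPKM. The ranges of the receptors did not overlap, with EGFR above ERBB2 by 1.53 ± 0.0279 fold and ERBB2 above ERBB3 by 3.46 ± 0.0992 fold.

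The ligands summed to less than the receptors. Of 11 ligand genes 5 were on, 2 were mixed and 4 were off, a count that depended on the limit, since 3 were on at 2 FPKM and 8 at 10 expected counts. The 11 together summed to between 41.9 and 46.8 FPKM, beside 146 to 155 for the 4 receptors. NRG1, a ligand of ERBB3, was first at 26.2, 24.8 and 28.3 FPKM and held 60.5 ± 1.36% of that sum. TGFA, the main EGF receptor ligand of keratinocytes besides amphiregulin, was at 7.16, 7.49 and 8.29 FPKM. AREG, which encodes amphiregulin, was at 2.96, 3.52 and 3.71 FPKM. NRG1 exceeded TGFA by 3.46 ± 0.182 fold, and TGFA exceeded AREG by 2.26 ± 0.147 fold. NRG4 and HBEGF were at 1.98 ± 0.193 and 1.54 ± 0.392 FPKM with overlapping ranges. BTC was mixed at 1.37, 1.25 and 0.83 FPKM, and EREG was mixed at 1.02, 0.92 and 1.0 FPKM. EGF itself was off at 0.01, 0.02 and 0.01 FPKM. The proteases that release these ligands, ADAM10 and ADAM17, were at 59.4 ± 2.07 and 17.2 ± 0.874 FPKM, and the rhomboid-like regulators RHBDF1 and RHBDF2 at 15.8 ± 1.56 and 9.81 ± 0.253.

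All 11 adaptors and RAS activators and all 9 genes of the kinase cascade were on. The adaptor SHC1 was at 63.4 ± 0.667 FPKM and GRB2 at 32.4 ± 0.314. HRAS made up 53.7 ± 2.31% of the FPKM of the 3 RAS genes, at 35.2, 39.1 and 40.6 FPKM, with NRAS at 24.4 ± 0.834. MAP2K2 exceeded MAP2K1 by 5.74 ± 0.0461 fold, and MAPK3, 1 of the ERK kinases, was at 22.9 ± 1.64 FPKM. Of the RAF kinases ARAF was at 49 ± 3.0 and BRAF at 2.83 ± 0.144 FPKM. In the PI3K branch 9 of 10 genes were on. PIK3R2 was at 71.5 ± 2.73 FPKM and AKT1 at 58.1 ± 1.08, which was 72.6 ± 0.964% of the 3 AKT genes, and PIK3CD, the catalytic chain of leukocytes, was off at 0.663.

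Of the feedback inhibitors 9 of 12 were on, with a median of 3.19 FPKM over the 12, beside 24.1 over the 9 genes of the cascade. The MAP kinase phosphatase DUSP6 was at 18, 17 and 19.7 FPKM. SPRED2 and ERRFI1, which bind RAF and the receptor, were at 12.2 ± 0.771 and 10.03 ± 0.397 FPKM, and SPRY2 was at 7.82 ± 0.334. SPRY4, SPRED3 and LRIG1 were off, with means of 0.507, 0.16 and 0.157 FPKM. The immediate early and ETS factors that the pathway induces were on in 15 of 17 cases. JUNB and JUND were at 69.1 ± 2.86 and 68.3 ± 5.07 FPKM with overlapping ranges, and IER3 and MYC were at 36.2 ± 1.04 and 32.9 ± 1.51. EGR1 was at 19.2 ± 0.446 FPKM. FOS was at 2.33, 2.57 and 2.12 FPKM and FOSB at 1.89, 2.35 and 1.9 FPKM. EGR2 and EGR3 were off at means of 0.597 and 0.453 FPKM.

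**Figure D3:**
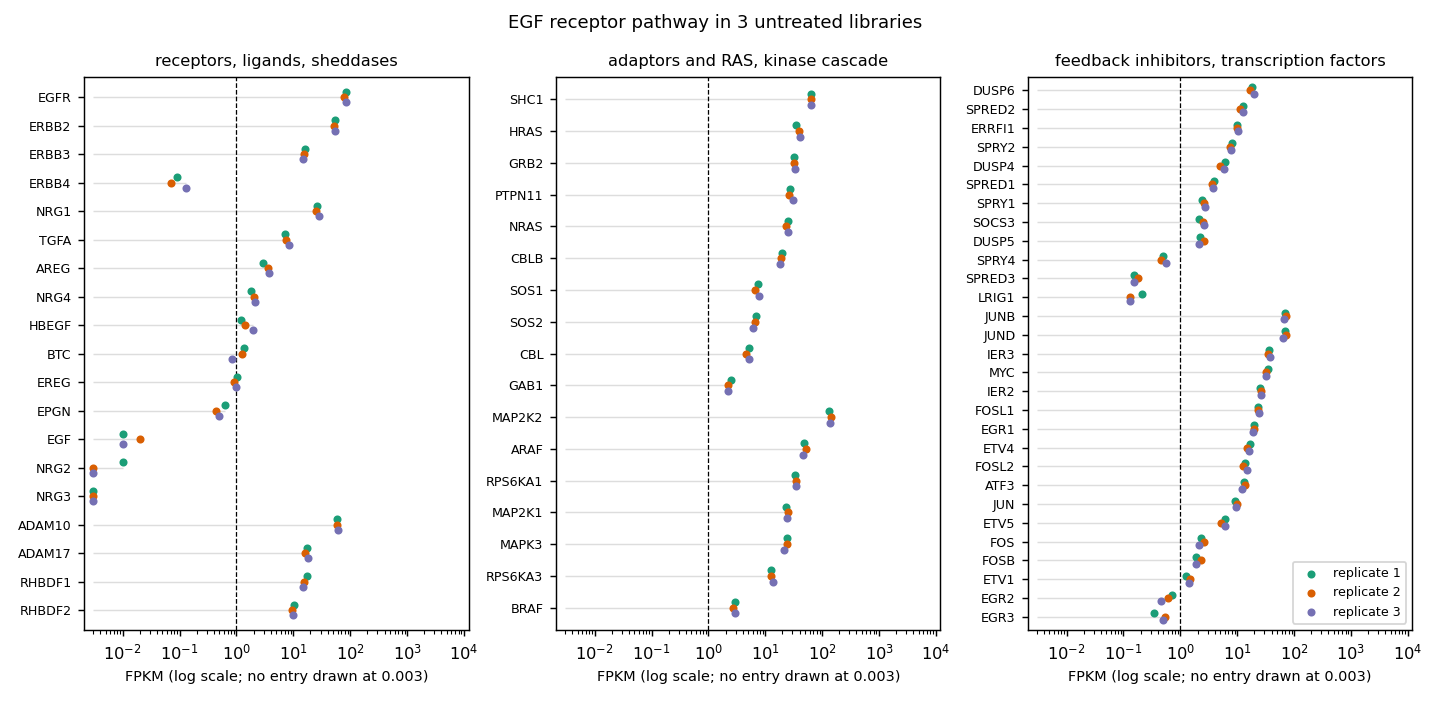
FPKM on a log axis of genes of the EGF receptor pathway by role, with 1 point per untreated library, genes with no entry in a library at the left edge and a dashed line at 1 FPKM. EGFR, ERBB2 and ERBB3 lie well to the right of the line, ERBB4 and EGF lie left of the line, and the genes of the kinase cascade that are shown lie right of it.

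Of 116 genes of other receptors and their ligands, without the TGF-β family ligands, 76 (65.5%) were on, beside 53.0% of protein-coding genes. A count near or under 53.0% in a single family does not set that family apart. Among 26 genes listed as growth factor receptor tyrosine kinases 12 were on, a share under 53.0%. The list includes IGF2R, a receptor that has no kinase domain. DDR1, a collagen receptor of epithelia, was highest at 253, 259 and 245 FPKM. EPHB4, MET, IGF2R and MST1R followed at 27.1, 22.7, 17.5 and 14.6 FPKM. FGFR2 and FGFR3 were at 11.3 ± 0.746 and 11.2 ± 0.769 FPKM with overlapping ranges, and IGF1R was at 8.03 ± 0.211. The insulin receptor INSR was off at 0.21, 0.27 and 0.19 FPKM, as were FGFR1 at a mean of 0.013 and KIT at 0.0033 FPKM, and PDGFRA, KDR and RET had no entry. Notch signalling had 7 of 11 genes on, with the ligands JAG2 and JAG1 at 30.7 ± 0.676 and 25.1 ± 0.381 FPKM and NOTCH1 at 20.3 ± 1.14, and DLL3 had no entry. Of the WNT genes WNT10A was first at 63.3, 66.2 and 61.3 FPKM, then the receptor FZD6 at 28.2 ± 1.63 and WNT7A at 15.9 ± 0.838 FPKM, while AXIN2 and LGR5, which the pathway induces, were off with means of 0.01 and 0.01. Of 10 receptors of the TGF-β superfamily 7 were on, with TGFBR2 at 20.4 ± 0.359 FPKM and TGFBR1 at 7.07 ± 0.757, and of 11 ligands 5 were on, led by TGFB1 at 30.5, 30.6 and 28.5 FPKM. Among the cytokine receptors IL20RB led at 51.6 ± 1.57 FPKM, and OSMR, the receptor of oncostatin M, was at 17.6 ± 0.77. Of 21 nuclear receptors 16 were on, led by RXRA at 64.3, 64.1 and 64.7 FPKM and its partner in retinoic acid signalling, RARG, at 48.5, 48.4 and 46.8 FPKM. The oestrogen receptors ESR1 and ESR2 had means of 0.13 and 0.14 FPKM and were off, and PGR had no entry.

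Genes induced by interferon were on throughout, while interferon genes themselves were off. All 29 effector genes of the interferon response were on, with a median of 83.9 FPKM (13.5 over all genes on), and summed to 7505, 7198 and 6197 FPKM in replicates 1, 2 and 3, or 1.48 ± 0.127% of the summed FPKM. After IFITM3 the highest were IFITM1 at 1163, 1152 and 918 FPKM and ISG15, a ubiquitin-like protein, at 771, 769.6 and 685 FPKM. IFI6, a mitochondrial protein of the response, was at 798, 778 and 615 FPKM. Replicate 3 was lowest for IFITM3, IFITM1, ISG15 and IFI6. All genes on that were shorter than 1000 bases had a median deviation of -0.072 on the log2 scale in replicate 3, and the part of this in the lower sum was not tested. The RNA sensors and binders IFIT3 and OAS2 had means of 289.6 ± 16.2 and 256 ± 27.1 FPKM, and the lowest member was HERC5 at 1.14, 1.21 and 1.48 FPKM. The members of the IFITM and IFIT families are close copies of each other, and their single levels are uncertain to that extent. All 8 signal factors were on. IRF7, IRF9 and STAT2, which carry the signal to the nucleus, were at 74.8 ± 6.14, 67.2 ± 3.18 and 54.7 ± 4.06 FPKM. None of 8 interferon genes was on. IFNL1, IFNL2 and IFNL3, near copies of each other, had means of 0.46, 0.363 and 0.417 FPKM, IFNB1 had 0.043 and IFNE 0.24, and IFNA1, IFNG and IFNK had no entry. The receptor chains IFNGR1, IFNGR2, IFNAR1, IFNAR2 and IFNLR1 were at means of 30.3, 23.1, 11.5, 6.18 and 1.55 FPKM.

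RefSeq promoters were found for 23 of the 29 effector genes, 32 promoters in all, and OAS2, OASL, IFIT2, IFITM2, USP18 and MX2 had no entry there. The core of the interferon-stimulated response element, taken as GAAA, any 2 bases and GAAA, was searched on both strands of the whole 300 bases. It lay in 21 of the 32 promoters (65.6%) and in 17 of the 23 genes. It lay in 3.17% of all promoters of protein-coding genes, in 2.85% of those of genes that were on and in 3.70% of those of genes that were off. The response element is known from promoters of this kind, so the match describes the list and says nothing of these cells. The 120 bases before the start are shown for 4 of the effector genes, 3 of which are among the highest, and the motif stands in capitals.
IFITM3 (chr11:320861-320980, minus strand): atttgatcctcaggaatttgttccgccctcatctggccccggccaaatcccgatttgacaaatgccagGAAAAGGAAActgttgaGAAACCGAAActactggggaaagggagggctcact
ISG15 (chr1:1013377-1013496, plus strand): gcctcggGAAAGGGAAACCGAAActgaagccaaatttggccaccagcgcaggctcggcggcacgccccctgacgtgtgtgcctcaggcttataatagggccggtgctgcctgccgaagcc
IFI6 (chr1:27672193-27672312, minus strand): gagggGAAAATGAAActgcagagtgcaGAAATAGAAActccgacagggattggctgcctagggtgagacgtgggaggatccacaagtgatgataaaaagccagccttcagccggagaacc
IFIT1 (chr10:89392503-89392622, plus strand): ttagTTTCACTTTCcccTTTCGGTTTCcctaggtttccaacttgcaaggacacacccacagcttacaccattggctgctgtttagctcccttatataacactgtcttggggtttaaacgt
Each of the 4 windows holds the motif at 2 positions. In ISG15 the 2 overlap, and in IFIT1 both lie on the other strand and read TTTC, any 2 bases and TTTC. IFIT1 had a mean of 121 ± 7.04 FPKM.

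Among other genes of innate immunity, 13 of 14 genes of class I antigen presentation were on, with B2M, the common light chain, at 1961, 1869 and 1623 FPKM, lowest in replicate 3. HLA-B and HLA-C, which share long stretches of sequence, were at 311 ± 18.7 and 283 ± 12.8 FPKM. Of 10 class II genes 2 were on, HLA-DQB1 at 3.0 ± 0.173 and HLA-DMA at 1.94 ± 0.25 FPKM. The class II regulator CIITA was off at 0.327. Of 22 pattern receptors 13 were on: the RNA sensors RIGI and IFIH1 were at 54 ± 3.73 and 49.99 ± 4.66 FPKM, TLR3 at 12.9 ± 1.2, and TLR2 and NLRP3 had no entry. In the interleukin-1 family IL18 was at 61.5, 59.5 and 57.8 FPKM, the receptor antagonist IL1RN at 23.3 ± 1.72, IL1B at 9.76 ± 0.64 and IL1A at 5.26 ± 0.635 FPKM, and IL33 and IL36A had no entry. Of 18 chemokines 5 were on, and CCL5 was highest at 47, 42.7 and 33.8 FPKM, followed by CXCL16 at 24.4 ± 1.96 FPKM. CXCL8 was off at 0.12, 0.48 and 0.3 FPKM and CCL20 and CXCL14 had no entry. Of 13 antimicrobial genes 3 were on, namely LCN2 at 19.9 ± 1.6, DEFB1 at 8.75 ± 2.39 and SLPI at 8.52 ± 0.71 FPKM, while S100A7 and S100A8, which inflamed epidermis makes in large amounts, had no entry, and S100A9 was off at 0.383. Of 16 other cytokines 4 were on, all with means below 5 FPKM, and TNF was off at 0.17.

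Proliferation genes were on in these cells. Of 55 genes of the cell cycle 54 were on (98.2%, beside 53.0% of protein-coding genes). Among the genes of replication and S phase, PCNA, the clamp of the replicating polymerase, was at 206, 221 and 226 FPKM. MCM7, TK1, MCM2 and MCM4 were at means of 111, 91.2, 75.7 and 70.8 FPKM. For G2 and mitosis, TOP2A was at 169, 174 and 188 FPKM, UBE2C at 169 ± 5.78, CDC20 at 134 ± 2.16 and CCNB1 at 93.5 ± 3.51 FPKM. MKI67, which encodes the proliferation antigen Ki-67, was at 39.5, 35.4 and 41.1 FPKM. Neighbours in the order of the mitotic genes overlapped in range in 12 of 18 cases. Genes with overlapping ranges can still keep the same order in each library, so this count does not settle that order. CCND1 held 76.1 ± 0.496% of the FPKM of the 3 D cyclins, at 152, 153 and 155 FPKM, and CDK4, its kinase, was at 103 ± 4.01 FPKM above CDK6 at 6.51 ± 0.682. Of the genes listed as kinase inhibitors CDKN2A was highest at 149.5, 156 and 136 FPKM. It also encodes ARF, which is not a kinase inhibitor, and the level of the gene does not separate its transcripts. CDKN1A was at 35.5 ± 0.86, CDKN1B at 24.4 ± 0.52 and CDKN2B at 21.1 ± 0.86 FPKM, and CDKN1C had no entry. In the BCL2 family 13 of 16 genes were on, led by the survival factor MCL1 at 103 ± 3.32, the effector BAX at 59.6 ± 1.28 and BCL2L1 at 50.7 ± 2.0 FPKM, while BCL2 itself was off at 0.053.

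In metabolism, each of the 12 genes of fatty acid synthesis and of the 24 of sterol synthesis was on. SCD held 99.7 ± 0.0225% of the FPKM of the 2 stearoyl-CoA desaturases and exceeded FASN, the fatty acid synthase, by 6.10 ± 0.355 fold. ACLY, which supplies acetyl-CoA, was at 441, 443 and 478 FPKM, and FASN at 437, 387 and 451 FPKM. Their ranges overlapped, and ACLY was above FASN in each of the 3 libraries. Of the sterol genes FDPS was at 490.4, 531 and 516 FPKM, FDFT1 at 289 ± 9.49 and EBP at 263 ± 18.8 FPKM. The regulators SREBF1 and SREBF2, which switch on the genes of this route, were at 218 ± 7.86 and 117 ± 3.76 FPKM. The median of the 24 sterol genes was 109.6 FPKM.

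Of 26 glycolytic genes 17 were on, and in several families 1 member held most of the FPKM. ALDOA held 97.9 ± 0.0462% of the aldolase FPKM, ENO1 99.9 ± 0.0162% of the enolase FPKM and HK1 90.8 ± 0.345% of the hexokinase FPKM. LDHA held 62.7 ± 1.94% of lactate dehydrogenase and exceeded LDHB by 1.69 ± 0.138 fold. PKM was at 938 ± 13 and TPI1 at 545 ± 11.3 FPKM. Among the members that were off were genes of liver, muscle and testis, such as PKLR at 0.0067 and ENO3 at 0.783 FPKM, and PGK2 and LDHC had no entry. Among 10 glucose transporters SLC2A1 was at 70.4, 71.6 and 70.03 FPKM and held 85.8 ± 0.745% of the FPKM, SLC2A3 was off at 0.10, and SLC2A2 had no entry. All 7 genes of the pentose phosphate route and all 21 of the citric acid cycle were on. TKT and PGD were at 427 ± 19.5 and 214 ± 8.53 FPKM, and MDH2, SDHD and CS at 139 ± 3.32, 129 ± 1.18 and 117 ± 3.15. Of 7 genes of gluconeogenesis 4 were on, and PCK1 and FBP2 had no entry. Fatty acid oxidation had 11 of 12 genes on and 1 mixed, with ACADVL at 129.7 ± 2.46 and HADHA at 123 ± 2.8 FPKM.

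Amino acid supply had 14 of 16 genes on. SLC7A5, a transporter of large neutral amino acids, was at 364, 355 and 386 FPKM, its heavy chain SLC3A2 at 168 ± 13.4, and the serine enzymes PHGDH and PSAT1 at 162 ± 6.31 and 136 ± 17.9 FPKM, while ARG1 had no entry. Of 19 genes of antioxidant defence 18 were on, led by GSTP1 at 681, 685 and 657 FPKM and TXN at 666, 661 and 691 FPKM, whose ranges overlapped, and by PRDX1 at 568 ± 23.4 FPKM. HMOX1 was at 1.69 ± 0.0361 FPKM and GPX3 was off at 0.077. Of 11 metallothioneins 4 were on, with MT2A at 304, 283 and 249 FPKM and 83.7 ± 0.280% of the FPKM of the family, whose members are close copies. Among enzymes and carriers of retinoids, vitamin D and xenobiotics, AKR1C2 was at 31.9 ± 5.78, ALDH3A1, an enzyme known from the cornea, at 28.6 ± 0.335 and CRABP2 at 20.4 ± 3.37 FPKM, and CYP1A1, CYP24A1 and CYP26A1 were off at means of 0.507, 0.047 and 0.033.

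The 3 libraries agreed closely. Over the 15250 listed genes the Pearson correlation of log2(FPKM + 1) was 0.9986 between replicates 1 and 2, 0.9982 between 1 and 3 and 0.9980 between 2 and 3, a description across genes, which are not independent replicates. The libraries were not copies of each other, since a chi-square of their counts over 12068, 12051 and 12054 genes gave 3.79, 4.89 and 7.39 per degree of freedom for the same pairs, where counting error alone gives 1 on average. Replicates 2 and 3 differed most by both measures. The median CV of FPKM over the genes on was 5.14%, 9206 of them (86.1%) had a CV under 10% and 18 had one over 30%. The biological coefficient of variation estimated by edgeR over 11943 genes was 0.0494. It was 0.0589 without replicate 1, 0.0479 without replicate 2 and 0.0390 without replicate 3.

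The spread followed the depth behind a gene. For genes from 0.1 to 1 FPKM the median CV was 22.9% at a median of 17.4 counts, beside a counting error of 24.0%. The counting error is 1 over the square root of the count. The median CV of 3 values falls below it by construction where counting is the only error. A median close to it therefore does not show that counting is the only error. From 1 to 2 FPKM it was 11.2% beside 10.4%, from 2 to 10 FPKM 6.52% beside 5.05%, and from 10 to 100 FPKM 4.27% beside 2.73%. Above 100 FPKM the CV stopped falling, with a median of 3.98% for 653 genes beside a counting error of 1.23% and, above 1000 FPKM, 5.59% for 63 genes beside 0.619%. Part of the spread went with gene length. For the 589 genes on that were shorter than 1000 bases the median deviation from the mean of the libraries was 0.083 in replicate 2 and -0.072 in replicate 3 on the log2 scale, and for the 2286 genes of at least 5000 bases it was -0.058 and 0.051. Replicate 1 deviated by -0.013 and 0.0074. The ribosomal protein genes of the large subunit summed to 54795, 59172 and 51869 FPKM. The part of gene length in this and in other differences between the libraries was not tested.

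**Figure D4:**
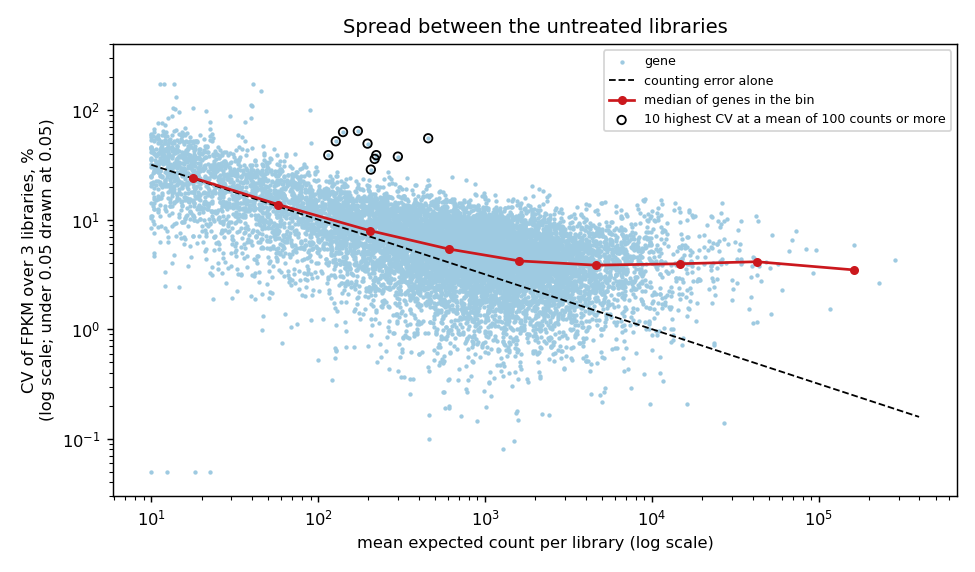
CV of FPKM over the 3 untreated libraries (y axis, %, log scale) against mean expected count (x axis, log scale) for genes with a mean of at least 10 counts, with the median per bin in red, counting error alone as the dashed line and the 10 genes of highest CV at 100 counts or more circled. The median lies close to the dashed line at low counts and levels off near 4% at high ones, and the circled genes lie at CVs from 28.6% to 64.3%. The median CV of 3 values falls below that line where counting is the only error, so closeness to it does not show counting error alone.

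Genes that differed widely between the libraries were few. Of 10308 genes with a mean of at least 100 counts, 8 were at least 2-fold apart between the highest and the lowest library. Among the 10 with the highest CV were JMJD7-PLA2G4B, SCHIP1, TIAF1, GTF2H2C, TVP23C-CDRT4, LOC102723360, PLA2G4B and CHURC1-FNTB, with CVs from 64.3% down to 28.6%. JMJD7-PLA2G4B was at 4.45, 1.72 and 1.5 FPKM, and PLA2G4B, which lies in the same read-through unit, was at 2.33, 4.84 and 4.73 FPKM. The first was high where the second was low. TIAF1, which lies within MYO18A, was at 3.88, 4.06 and 1.23 FPKM. How the counting divides reads between overlapping or copied genes is not stated. None of the 10 genes belongs to a list described above.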

How the data were processed

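RNA from 3 groups of 3 HaCaT samples was sequenced by BGI, and the 3 untreated libraries were used. The submitters' text and the methods of the study differ on the extraction kit and the sequencer. The authors mapped reads to GRCh38.p12 with an online system, and the counting program is not given in the sources used here. The authors deposited expected counts, estimates of fragments per gene without scaling, which need not be whole (17.8% to 18.9% of a library's genes). They also deposited FPKM, which is the expected count divided by effective gene length and library total, and a gene length in bases. Whether counting used strand is not stated.

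Genes were matched by NCBI gene number to RefSeq (15231 of 15250 found) and classed at 1 FPKM. Coordinates of genes are from GENCODE 44 on GRCh38. With 1 group there was no comparison of conditions and no test. A two-sided exact permutation of 3 against 3 values cannot give a p below 0.1, so genes were compared by whether their ranges overlapped. The genes are measured in the same libraries, so overlapping ranges do not exclude the same order in each library. The spread was estimated with edgeR 4.0.16 in R 4.3.3, on expected counts rounded to whole numbers with TMM factors between 0.992 and 1.01, and was checked on simulated counts. Python 3.11.15, pandas 2.3.3, numpy 2.4.6 and matplotlib 3.10.9 were used. In each library 3 counts correspond to 0.146 to 0.148 CPM, a floor that covers counting error only. The libraries' depths are similar, so precision is set by the count of each gene.

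Genes named were the 4 keratinocyte markers, the 20 highest means, up to 5 top members of each role plus members a role turns on because they were off, and the 10 highest CVs at 100 counts or more. A few other members with a known role, such as EGR1, MKI67 and HMOX1, were named after their values were seen. The gene lists and the set of libraries were chosen with earlier results of these data known. Alternatives were other limits for a gene being on, other units, and leaving out each library. Some members counted in the lists are not reported here by name.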

Additional observations from a re-analysis of the deposited data

How the results depend on the processing

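The number of genes on stayed within 1.5 times 10693 under each alternative: 11265 at 0.5 FPKM, 9949 at 2 FPKM, 11968 at 10 expected counts, 11301 at 1 TPM, 10825 by the mean, 10990 in any library, and 10728 to 10760 without 1 replicate. The members of the lists that were on numbered 758, and 712 to 832 under other limits. Of 623 counts of single roles under other limits or without a library, 597 stayed within 1.5 times the count given and 26, in 13 of 89 roles, did not: the EGF receptor ligands, the cross-linking enzymes, class II antigen presentation, other cytokines, glucose transporters, interleukin receptors and 7 sets of markers of other cell types. The markers of other cell types depend on the limit: 6 were on at 1 FPKM, 10 at 0.5 FPKM, 3 at 2 FPKM and 13 at 10 expected counts, and 6 to 7 without 1 replicate, while the 4 keratinocyte markers were on in each case. The share of the 100 most abundant genes was 19.7% when expected counts replaced FPKM, since counts are not divided by length, and 31.7% to 32.7% without 1 replicate. The first 20 genes by FPKM shared 9 with the first 20 by expected counts. TPM was taken as FPKM scaled to the same total in each library. Its order within a library is therefore that of FPKM, so the order by TPM is no separate check. The limit of 1 TPM likewise lies close to that of 0.5 FPKM. The median CV was 5.85% in TPM and 5.00% in CPM with TMM factors. Without 1 replicate it was 3.59% to 4.81%, lowest without replicate 3. The median CV of 2 values is smaller by construction than that of 3, so these values cannot be set against the 5.14% of all 3 libraries. The edgeR estimate was 0.0494 with all 3 libraries and rose to 0.0589 without replicate 1. The lowest correlation was 0.9952 with a pseudocount of 0.1. No paired analysis was possible because 1 group was described and no test compared groups; ratios of genes were taken within each library. Genes under 10 counts carry a large counting error, so that off and weakly on cannot be separated there.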

Other observations

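The actin cytoskeleton and the calcium-binding proteins at the membrane were among the most abundant gene groups outside protein synthesis. Of 20 actin and actin-binding genes 18 were on and together held 1.99 ± 0.0538% of the summed FPKM. After ACTB came the actin-sequestering thymosins TMSB10 and TMSB4X at 1138 ± 129 and 1030.3 ± 96.8 FPKM and ACTG1 at 1106 ± 46.8, with ranges that overlapped. The genes of contractile smooth muscle cells TAGLN and MYL9 were off at means of 0.597 and 0.79 FPKM. Of 15 S100 and annexin genes 14 were on, in a list that leaves out S100A7, S100A8, S100A9 and S100A12, which were counted among the antimicrobial genes and were not on, with ANXA2 at 1685, 1675 and 1577 FPKM and its partner S100A10 at 1201, 1346 and 1114 FPKM. Among the SERPINB genes SERPINB5, which encodes maspin, was at 154 ± 7.01 FPKM, while SERPINB3, SERPINB4 and SERPINB12, genes of upper layers and of inflamed skin, had means of 0.20, 0.193 and 0.0033. All 17 chaperone genes were on, led by HSPA8 at 1228 ± 28.1 FPKM. HSPA1A and HSPA1B, which are nearly identical, were listed at 356 ± 18 and 320.3 ± 4.23 FPKM.

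Among the abundant genes that no list held, chosen here after their values were seen, several are known from keratinocytes or from growth factor biology. SFN, the 14-3-3 protein of stratified epithelia, was at 1038, 1048 and 967 FPKM. MDK, a heparin-binding growth factor, was at 940.4, 906 and 749 FPKM, and FGFBP1, which releases fibroblast growth factors from the matrix, was at 432, 417 and 405 FPKM. GPNMB, a glycoprotein best known from melanocytes and macrophages, was at 479, 493 and 418 FPKM, and of the 7 melanocyte markers MITF was on at 1.33, 1.09 and 1.69 FPKM, PMEL, MLANA and TYRP1 were off with means of 0.677, 0.10 and 0.03 FPKM, and TYR, DCT and SOX10 had no entry. The cell surface proteins CD9 and CAV1 were at 632 ± 43.4 and 625 ± 27.1 FPKM.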
